A study of Rattus norvegicus with 6 samples.

Results

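Cytochrome P450 genes were followed in the substantia nigra pars compacta, the midbrain region that holds the dopamine neurons projecting to the striatum. The members are all array probes whose RefSeq transcript belongs to a rat gene with a symbol of the form Cyp plus a digit. These were 59 probes for 50 genes, out of 33849 probes, of which 4675 could be given a symbol (4013 genes). The animals were 6 male Sprague Dawley rats aged 5 months. Each carried an osmotic pump under the skin for 28 days. In 3 rats (16, 13 and 9) it delivered 0.5 mg/kg per day of rotenone, a pesticide that blocks complex I of the mitochondrial respiratory chain. In the other 3 (11, 7 and 1) it delivered the solvent alone, a mixture of DMSO and polyethylene glycol with the surfactant Pluronic F-127. The rotenone rats received this solvent too. RNA of the laser-captured region was hybridised to 1 one-colour CodeLink array per rat. The question asked of the members was which of them were measured above background, and whether their levels differed between rotenone and solvent.

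P450 enzymes hold a heme through a cysteine and insert 1 atom of oxygen into their substrate. Those of the endoplasmic reticulum take electrons from the reductase Por, with cytochrome b5 as a second donor, and those of mitochondria from ferredoxin. Members of the first 3 families oxidise drugs and other foreign compounds, mostly in the liver, and rotenone is itself oxidised by liver P450 enzymes. Members of the other families make or break down defined molecules such as cholesterol, steroid hormones, bile acids, vitamin D, retinoic acid and fatty acids. In brain the family is in general at low levels, and single members are known from neurons, glia or blood vessels.

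No P450 gene passed the test for a change with rotenone. Of the 59 probes, 23 (21 genes) were above background on at least 3 of the 6 arrays and were tested. At an adjusted p below 0.05 (limma, Benjamini-Hochberg over all 16708 tested probes) the count was 0 of 23, and 0.0% of all tested probes passed (smallest adjusted p 0.895). Measured on every array were, among others, Cyp51 of cholesterol synthesis, Cyp26b1 of retinoic acid breakdown, Cyp27a1 of cholesterol oxidation, Cyp1b1 and the orphan Cyp20a1. Members known from liver were divided. Cyp1a2, Cyp2e1 and Cyp7a1 were not above background on any array. Cyp2a1 was above background on 5 arrays, and 1 of the 2 probes each of Cyp2a2 and Cyp3a23-3a1 on all 6. With the offset of 50 used here, the largest differences were those of Cyp2a1 and of 1 of the 2 Cyp4a8 probes, at 0.57 and 0.45 on the log2 scale, both with an adjusted p of 0.895 in limma. With plain subtraction of the background they were 0.77 and 0.71, and the dim probes of Cyp3a2 (1.33) and Cyp2t1 (-1.05) came before them, so that the order depends on the background correction. Values are normalized log2 intensities unless another measure is named. Differences are rotenone minus solvent on that log2 scale, in which an added offset draws differences of dim probes towards 0.

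The arrays and the tissue were checked first. Between 44.2% and 51.5% of all probes were above background on an array, which here means that the scanner marked the spot neither as near background nor as masked. The array of rotenone rat 16 stood apart. Its mean correlation with the other arrays was 0.931, against 0.956 to 0.964 for the others, and its median net signal was 11.7, against 13.9 to 16.6. All 11 markers of dopamine neurons on the array by name were tested, 8 of them above background on all 6 arrays. With rotenone, 7 were below and 4 above 0 (median -0.17, the same without rotenone rat 16). Of these Sncg (-0.67) and Nr4a2 (-0.79) had an unadjusted p of 0.0169 and 0.0343 in limma and did not pass adjustment. Without rotenone rat 16 they were at -0.37 and -0.47. Pitx3, counted among the 7, was above background on 3 solvent arrays and on no rotenone array. It was thus tested only through the group where it was higher. Of the 7 hepatocyte markers on the array, Alb, Apoa2, Ttr, Fgb and Serpina1 were above background on no array and Apoa1 on 2, while Tat was so on all 6. In captured tissue, fewer cells of a type and less RNA per cell cannot be told apart.

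To show how these genes differ at their starts, the 250 bases before the RefSeq gene start are printed for 5 members whose window ends at that start: Cyp51 and Cyp26b1, measured on every array, Cyp2a1 and Cyp4a8, the genes with an unadjusted p below 0.05, and Cyp1a2, above background on none. The sequences are those of RefSeq, build GRCr8, 5′ to 3′ on the strand of the gene. The windows are chr4:30991443-30991692 (plus strand) for Cyp51, chr4:118616177-118616426 (minus strand) for Cyp26b1, chr1:91359028-91359277 (plus strand) for Cyp2a1, chr5:133970227-133970476 (minus strand) for Cyp4a8 and chr8:66978150-66978399 (minus strand) for Cyp1a2. Capitals mark GCGTG, the core of the site bound by the aryl hydrocarbon receptor, and TATAAA, the sequence of a TATA box, each searched on both strands.
Cyp51: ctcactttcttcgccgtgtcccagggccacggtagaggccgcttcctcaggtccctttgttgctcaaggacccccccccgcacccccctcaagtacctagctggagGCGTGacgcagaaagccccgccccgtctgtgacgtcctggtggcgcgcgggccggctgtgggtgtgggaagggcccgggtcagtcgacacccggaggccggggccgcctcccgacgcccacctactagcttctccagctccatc
Cyp26b1: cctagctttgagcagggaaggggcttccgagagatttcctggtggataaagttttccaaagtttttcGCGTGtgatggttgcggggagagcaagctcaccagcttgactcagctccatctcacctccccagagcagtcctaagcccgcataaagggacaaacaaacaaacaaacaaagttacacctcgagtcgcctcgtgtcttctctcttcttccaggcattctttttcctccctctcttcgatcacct
Cyp2a1: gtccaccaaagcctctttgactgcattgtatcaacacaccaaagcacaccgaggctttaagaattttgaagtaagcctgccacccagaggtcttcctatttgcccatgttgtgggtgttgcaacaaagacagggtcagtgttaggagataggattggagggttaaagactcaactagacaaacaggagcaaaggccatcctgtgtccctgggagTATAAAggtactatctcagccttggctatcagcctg
Cyp4a8: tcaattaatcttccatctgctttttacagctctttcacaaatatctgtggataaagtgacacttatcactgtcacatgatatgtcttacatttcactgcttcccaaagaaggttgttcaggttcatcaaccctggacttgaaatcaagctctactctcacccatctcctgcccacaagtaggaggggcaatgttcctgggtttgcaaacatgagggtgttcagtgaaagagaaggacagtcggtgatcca
Cyp1a2: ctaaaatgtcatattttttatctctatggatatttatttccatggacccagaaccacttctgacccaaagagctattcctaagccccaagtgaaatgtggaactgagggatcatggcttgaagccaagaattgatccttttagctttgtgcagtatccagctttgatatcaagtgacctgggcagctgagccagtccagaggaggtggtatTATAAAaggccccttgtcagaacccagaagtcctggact
The Cyp51 window holds 21 CpG dinucleotides and that of Cyp26b1 holds 9, each with 1 GCGTG and no TATAAA. Cyp2a1 and Cyp1a2 have 1 and 0 CpG, and their TATAAA begins 36 and 39 bases before the start. Cyp4a8 has 1 CpG and neither motif.

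A promoter entry was found for 41 of the 50 genes, some of them at a start other than the outermost one of the gene. GCGTG was present in 6 of the 18 such windows of tested members (33.3%; Cyp1b1, Cyp20a1, Cyp26b1, Cyp2t1, Cyp4f5 and Cyp51), in 3 of the 23 of members that were not tested, and in 25.9% of all 33469 rat windows of the same length. TATAAA was present in 4 of 18 (22.2%; Cyp21a1, Cyp27b1, Cyp2a1 and Cyp2d3) and in 10 of 23 (43.5%), against 12.9% of all. In Cyp27b1 and Cyp2d3, and in Cyp2d1 among the 10, it was on the opposite strand only. In Cyp2c22, also among the 10, it began 197 bases before the start. A count of TATAAA is thus not a count of TATA boxes. The median number of CpG dinucleotides was 4 in tested members, 2 in the others and 5 over all windows. Both motifs were picked for display after detection and the motif counts had been seen, out of 8 searched, which makes their shares a selected result. AGGTCA, a motif of nuclear receptors, was present in 6 of 18 and 7 of 23 windows, GGGCGG in 6 and 4, CCAAT in 6 and 9, AGTTCA in 5 and 6, TCACNCCA in 0 and 1 and TCACNCCAC, which contains it, in 0 and 0. Their shares of all windows were 14.1%, 30.5%, 34.0%, 12.2%, 3.24% and 0.974%. These counts describe letters in these windows and were not tested.

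Detection is given next by role. On single arrays 22 to 26 of the 59 probes were above background, that is 37.3% to 44.1%. On at least 3 arrays it was 23 (39.0%), against 49.4% of all probes and 52.8% of those with a symbol, and on all 6 arrays 15 (25.4%), against 36.8% of all probes. Another 12 were above background on 1 or 2 arrays and 24 on none. Of the 30 probes (25 genes) for enzymes of foreign compounds, 9 passed on at least 3 arrays and 15 on none. Of the 11 fatty acid and eicosanoid probes 6 passed, of the 8 steroid hormone probes 2, and of the 6 probes for sterols, bile acids and vitamin D 3. Of the 3 retinoic acid probes the 2 of Cyp26b1 passed. The single Cyp20a1 probe passed too.

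**Figure D1:**
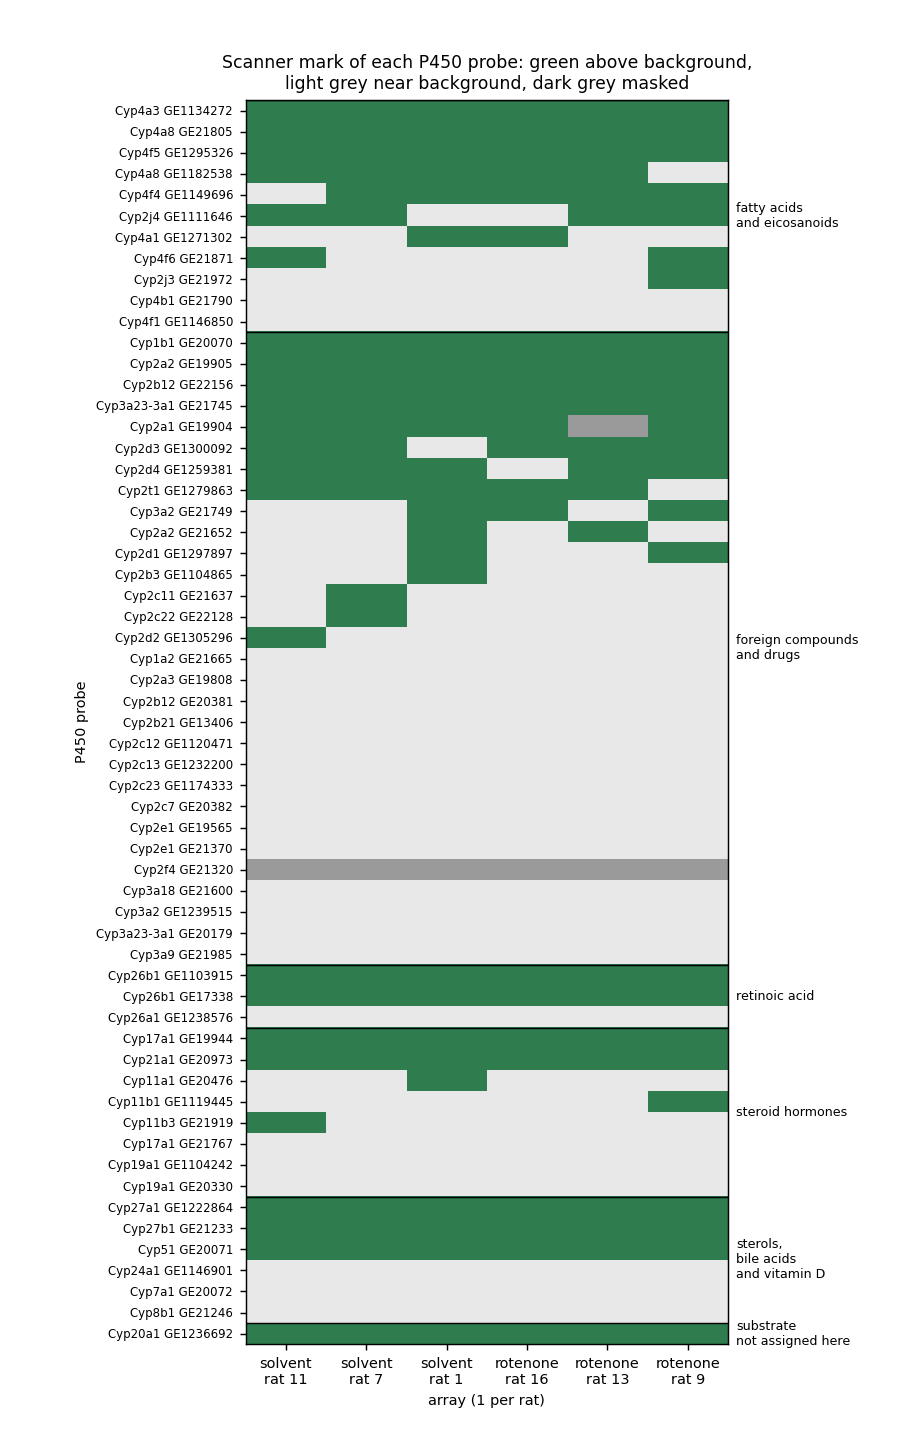
Scanner mark of each of the 59 P450 probes (rows, by role) on the 6 arrays (columns, 1 rat each): green is above background, light grey near background and dark grey masked. The probes green in all 6 columns number 15, the rows of Cyp2e1 are grey throughout, and Cyp2f4 is masked throughout.

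The members that were not tested are these. Above background on 1 or 2 arrays were Cyp2a2 (its probe GE21652), Cyp2b3, Cyp2c11, Cyp2c22, Cyp2d1 and Cyp2d2 among drug-oxidising enzymes, Cyp2j3, Cyp4a1 and Cyp4f6 among those of fatty acids, and Cyp11a1, Cyp11b1 and Cyp11b3 among those of steroid hormones. Cyp11a1 cleaves the side chain of cholesterol, the first step to all steroid hormones, and was above background in solvent rat 1 only. Above background on no array were Cyp1a2, Cyp2a3, Cyp2b21, Cyp2c7, Cyp2c12, Cyp2c13, Cyp2c23, Cyp3a9, Cyp3a18 and both probes of Cyp2e1. The same held for Cyp4b1 and Cyp4f1, for both probes of the aromatase gene Cyp19a1, for Cyp26a1, for Cyp7a1 and Cyp8b1 of bile acid synthesis, and for Cyp24a1, which breaks down vitamin D. Also on none were the second probes of Cyp2b12, Cyp3a2, Cyp3a23-3a1 and Cyp17a1. Cyp2f4 was masked on all 6 arrays and so gave no measurement. A probe near background shows that a transcript was not detectable with that probe, and no fold is given for these members.

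Of the 9 genes with 2 probes, both were tested for Cyp26b1 and Cyp4a8, 1 for Cyp17a1, Cyp2a2, Cyp2b12, Cyp3a2 and Cyp3a23-3a1, and neither for Cyp19a1 and Cyp2e1. The probes of 5 genes thus disagreed on whether the transcript was above background. The probe sequences were not used here, so it was not tested whether a probe also binds a related member. This touches most the Cyp2a, Cyp2b, Cyp2c, Cyp2d, Cyp3a, Cyp4a and Cyp4f subfamilies, whose genes are close in sequence and lie side by side. By the order of genes in RefSeq, 35 of the 50 members have another member within 15 protein-coding genes, and 13 of these were tested, against 8 of the 15 that stand alone. In the run from Cyp2b3 to Cyp2t1, 4 of 8 members were tested (Cyp2b12, Cyp2a1, Cyp2a2 and Cyp2t1), and in the run of Cyp26a1 with 5 Cyp2c genes, none of 6.

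Among the enzymes of sterols and vitamin D, 3 genes were above background on all arrays. Cyp51 removes a methyl group from lanosterol, an obligatory step of cholesterol synthesis. It read 9.30, 9.01 and 9.27 in solvent rats 11, 7 and 1 and 9.41, 8.91 and 9.25 in rotenone rats 16, 13 and 9. The groups overlapped, and the difference was -0.01 (95% interval -0.42 to 0.40). Cyp27a1, a mitochondrial enzyme that oxidises the side chain of cholesterol, read 6.78, 7.38 and 7.23 with solvent and 6.99, 7.93 and 7.37 with rotenone. Rotenone rat 13 was the highest and solvent rat 11 the lowest. Its difference was 0.30 (interval -0.27 to 0.86), 0.52 without rotenone rat 16 and 0.05 without rotenone rat 13. Cyp27b1, which makes the active form of vitamin D, read 6.52, 6.51 and 6.45 with solvent and 6.75, 6.53 and 6.34 with rotenone, a difference of 0.05 (interval -0.32 to 0.42) with the rotenone values on both sides of the solvent values.

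Retinoic acid, a signal that binds nuclear receptors, is broken down by the Cyp26 enzymes. The brighter Cyp26b1 probe, GE1103915, read 8.35, 8.33 and 8.70 with solvent and 9.01, 7.74 and 8.89 with rotenone, so that the highest and the lowest of the 6 rats were both rotenone rats. The other, GE17338, read 6.67, 6.93 and 8.38 with solvent and 7.23, 6.86 and 7.61 with rotenone, and here solvent rat 1 was the highest. Differences were 0.09 (interval -0.59 to 0.76) and -0.09 (interval -0.96 to 0.77), with the widest intervals of the family (SE 0.30 and 0.39). With a rat left out they ranged from -0.14 to 0.49 and from -0.42 to 0.43. The lowest rat was rotenone rat 13 at the first probe and solvent rat 11 at the second, so that these 2 probes of 1 gene did not order the rats alike. Among the retinoid handling genes listed beside it, Aldh1a2, which makes retinoic acid, differed by 0.39 ± 0.32 (SE; 0.62 without rotenone rat 16) and Crabp2, a carrier of retinoic acid, by 0.01 ± 0.32.

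Steroid hormone enzymes were represented by 2 genes. Cyp17a1, needed for androgens and glucocorticoids in many mammals, read 6.90, 7.03 and 7.39 with solvent and 7.38, 7.13 and 6.93 with rotenone at probe GE19944. Cyp21a1, the 21-hydroxylase of corticosteroid synthesis, read 6.54, 6.68 and 6.65 with solvent and 6.53, 6.82 and 6.64 with rotenone. The groups overlapped at both genes. The difference was 0.04 for each, with intervals from -0.39 to 0.47 for Cyp17a1 and from -0.32 to 0.40 for Cyp21a1. The second Cyp17a1 probe was above background on no array.

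Fatty acids and their oxygenated derivatives are the substrates of the Cyp4 and Cyp2j enzymes. Cyp4a8, a fatty acid hydroxylase, gave at probe GE21805 the values 6.96, 7.15 and 6.95 with solvent and 7.80, 7.44 and 7.19 with rotenone. Each rotenone rat lay above each solvent rat, the nearest being rotenone rat 9 at 7.19 and solvent rat 7 at 7.15. All 6 spots of this probe were marked as irregular in shape. The difference was 0.45 ± 0.19 (SE; interval 0.03 to 0.88), with an unadjusted p of 0.0378 and an adjusted p of 0.895 in limma, and higher values in 3 of 3 rotenone rats. An exact permutation test over the 6 rats (two-sided) gave 0.1, the smallest value that 3 against 3 allows. Without rotenone rat 16 the difference was 0.30. The second probe of the gene, GE1182538, read 6.34, 6.22 and 6.25 with solvent and 6.44, 6.26 and 6.08 with rotenone and differed by -0.00434 (interval -0.37 to 0.36). The 2 probes of Cyp4a8 thus gave different values for the same comparison.

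Cyp4f5 read 6.83, 6.71 and 6.79 with solvent and 7.63, 7.03 and 6.77 with rotenone, a difference of 0.37 (interval -0.12 to 0.85) that was 0.12 without rotenone rat 16. Cyp4f4, its neighbour, read 6.15, 6.20 and 6.16 with solvent and 6.52, 6.25 and 6.23 with rotenone. These groups did not overlap, yet the difference was only 0.16 (interval -0.19 to 0.52) and the scanner put the probe near background in solvent rat 11. Cyp4a3 read 6.75, 6.52 and 6.66 with solvent and 6.91, 6.55 and 6.83 with rotenone (difference 0.12, interval -0.25 to 0.50). Cyp2j4, of the group that makes epoxides of arachidonic acid, read 6.78, 6.47 and 5.91 with solvent and 6.19, 6.99 and 6.23 with rotenone. It was above background on 2 arrays of each group, and its difference of 0.09 (interval -0.52 to 0.70) lay between -0.17 and 0.28 with a rat left out. As a group, these 6 probes had a median difference of 0.14, with 5 above 0 and 1 below.

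Of the enzymes of foreign compounds 9 probes were tested, with differences from -0.32 to 0.57 and a median of 0.09. Cyp2a1, a testosterone hydroxylase of liver, read 7.33, 7.27 and 7.51 with solvent and 8.52, 7.66 and 7.62 with rotenone. The groups did not overlap and rotenone rat 16 stood above all others. The spot of rotenone rat 13 was masked by the scanner and the other 5 were marked as irregular in shape, all values being kept here. The difference was 0.57 ± 0.24 (SE; interval 0.03 to 1.10) with an unadjusted p of 0.0407 and an adjusted p of 0.895 in limma, and higher values in 3 of 3 rotenone rats. It was 0.27 without rotenone rat 16 and 0.71 without rotenone rat 13. Its neighbour Cyp2a2 read 6.49, 6.56 and 6.59 with solvent and 7.10, 6.37 and 6.44 with rotenone. Here rotenone rat 16 was again the highest, but the other 2 rotenone rats lay below all solvent rats. The difference of 0.09 (interval -0.37 to 0.56) became -0.14 without rotenone rat 16.

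Cyp1b1, which oxidises estrogens and polycyclic hydrocarbons and is induced through the aryl hydrocarbon receptor, read 7.31, 7.06 and 7.35 with solvent and 7.22, 7.37 and 7.01 with rotenone. The groups overlapped (difference -0.04, interval -0.42 to 0.35). Cyp2d4, the Cyp2d member best known from rat brain, read 6.75, 6.73 and 6.86 with solvent and 6.28, 6.92 and 6.67 with rotenone. It was below background in rotenone rat 16, and its difference of -0.16 (interval -0.58 to 0.27) was 0.02 without this rat. Cyp2d3, above background on 5 arrays, read 6.41, 6.17 and 6.06 with solvent and 6.48, 6.40 and 6.27 with rotenone (difference 0.17, interval -0.20 to 0.54). Cyp2b12 read 6.97, 6.70 and 6.61 with solvent and 6.83, 6.60 and 6.55 with rotenone at probe GE22156 (difference -0.10, interval -0.49 to 0.28). In both cases the 2 groups overlapped.

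The Cyp3a enzymes oxidise many drugs and steroids. Cyp3a23-3a1 read 6.47, 6.53 and 6.14 with solvent and 6.89, 6.60 and 6.43 with rotenone at probe GE21745, a difference of 0.26 (interval -0.16 to 0.68) that was 0.14 without rotenone rat 16 and 0.14 without solvent rat 1. Cyp3a2 was above background in 1 solvent and 2 rotenone rats, at 5.85, 6.17 and 6.17 with solvent and 6.27, 6.13 and 6.41 with rotenone (difference 0.20, interval -0.18 to 0.58). Without solvent rat 11 this was 0.09, and with plain subtraction of the background 1.33. Both genes had a second probe at background on all arrays, and both pairs of groups overlapped. Cyp2t1 had the lowest difference of the family, -0.32 (interval -0.74 to 0.10), and -1.05 with plain subtraction. It read 6.67, 6.23 and 6.66 with solvent and 6.41, 6.13 and 6.05 with rotenone, and the rotenone values reached into the solvent range. Without rotenone rat 16 its difference was -0.45 with an unadjusted p of 0.0459 in limma.

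Cyp20a1, whose substrate is not known, read 8.49, 8.25 and 8.14 with solvent and 8.14, 8.04 and 8.12 with rotenone. Unrounded, each rotenone rat lay below each solvent rat, and the lowest solvent and the highest rotenone value coincide after rounding. The difference was -0.20 (interval -0.56 to 0.17), and it ranged from -0.27 to -0.10 with a rat left out. Its unadjusted p in limma was 0.259, so that the difference did not pass even without adjustment.

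**Figure D2:**
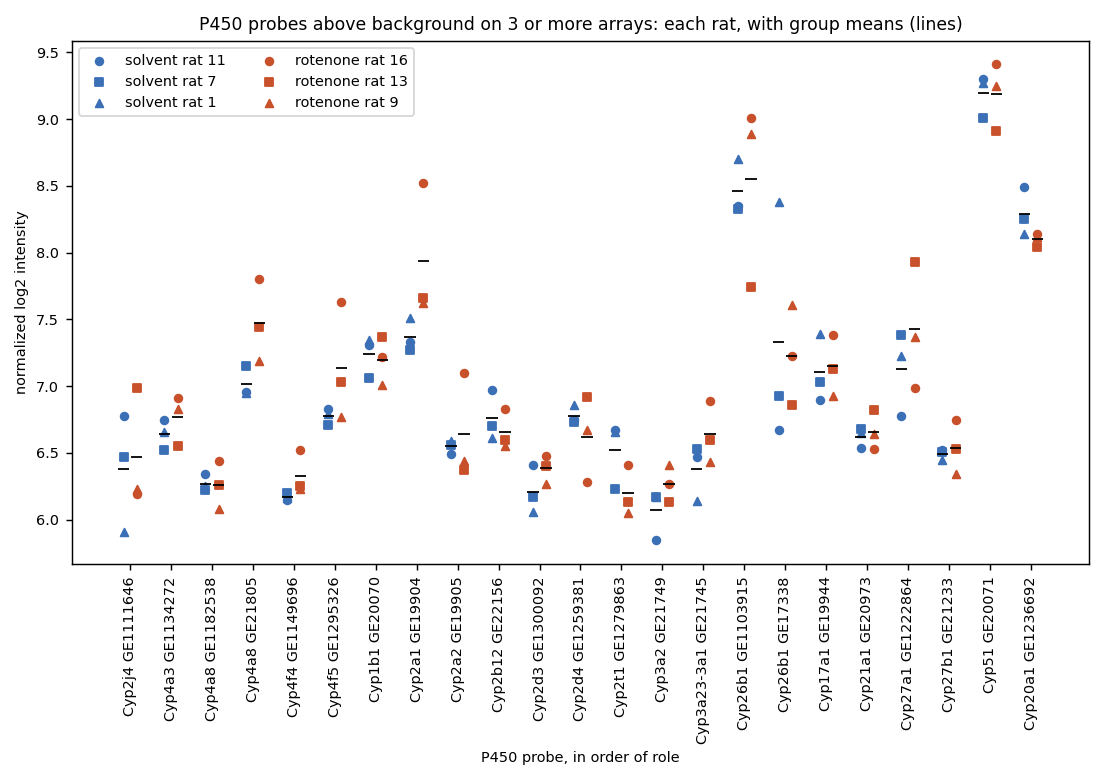
Normalized log2 intensity of the 23 tested P450 probes in each rat, blue for solvent and red for rotenone, with a line at each group mean (n = 3 each). In most probes the colours overlap, and the red circle of rotenone rat 16 stands above the others at Cyp2a1, Cyp2a2, Cyp4f5 and Cyp4a8.

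All tested probes give the background for these counts. Of the 23 probes 2, Cyp4a8 and Cyp2a1, had an unadjusted p below 0.05 in limma, where 4.94% of all 16708 tested probes did. Both were among those higher with rotenone, which made up 1.99% of all tested probes, against 2.95% that were lower. In 4 of 23 (Cyp2a1, Cyp4a8, Cyp4f4 and Cyp20a1) the groups did not overlap (17.4%), where 9.97% of all tested probes did not. In the first 3 of these rotenone was higher, as in 5.08% of all. The probes with an unadjusted p below 0.05 in limma changed with the rat left out. A fit on fewer rats also tends to raise p by itself, so this does not show that a difference rests on 1 rat. No probe was below 0.05 without solvent rat 11, though Cyp2a1 and Cyp4a8 GE21805 still differed by 0.55 and 0.42. Without rotenone rat 16 Cyp4a8 GE21805 differed by 0.30 (p 0.116) and Cyp2a1 by 0.27 (p 0.127), and the only probe below 0.05 was Cyp2t1 (p 0.0459). Without solvent rat 1 it was Cyp2a1, and without solvent rat 7 Cyp4a8 and Cyp2t1. Without rotenone rat 13 they were Cyp2a1 and Cyp26b1 GE1103915 (p 0.0348), and without rotenone rat 9 Cyp2a1, Cyp4a8 and Cyp4f5 (p 0.0357). With the offset of 50, all differences but that of Cyp2a1 were smaller than 0.5, and 22 of the 23 intervals lay within 1 of 0 on both sides. Sizes depend on this offset: with an offset of 16, 3 probes differed by 0.5 or more, and with plain subtraction 9 did. The SE of a difference was 0.19 in the median, the same as over all tested probes, and ranged from 0.16 to 0.39.

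**Figure D3:**
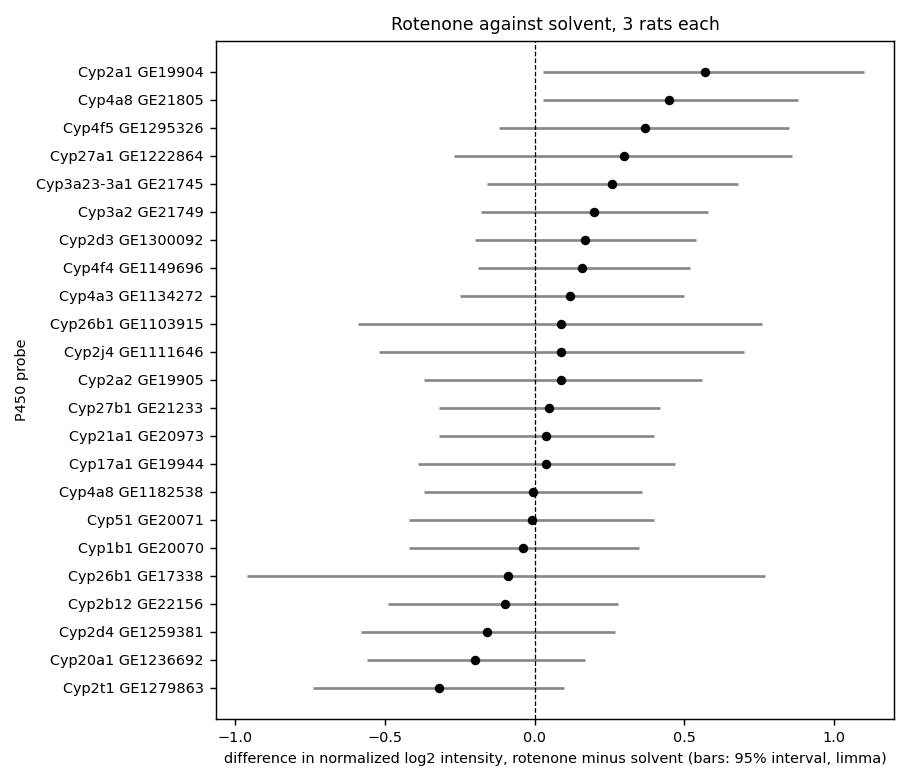
Difference in normalized log2 intensity (rotenone minus solvent, 3 rats each) of the 23 tested P450 probes, with 95% intervals from limma. The intervals of Cyp2a1 and of Cyp4a8 GE21805 lie just above 0 at their lower end, at 0.03 each, and the other 21 include 0.

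Differences were above 0 in 15 of the 23 probes (65.2%), against 51.6% of all tested probes, with a median of 0.09, against 0.01. Rotenone rat 16, whose array stood apart, had the highest value of the 6 rats in 12 of the 23 probes (52.2%), against 29.4% of all tested probes. Set against the mean of the solvent rats, the 23 probes deviated by a median of 0.21 in rotenone rat 16, by 0.07 in rotenone rat 13 and by 0.01 in rotenone rat 9. Solvent rats 11, 7 and 1, which are part of that mean, deviated by 0.02, -0.05 and 0.03. Without rotenone rat 16 the median difference was 0.02, with 12 probes above 0 and 11 below. With medians of the arrays equalised in place of quantile normalization, the median difference was -0.01, against -0.06 over all probes.

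Several lists of cell type markers also deviated in rotenone rat 16, some upwards and some downwards. The 6 tested markers of endothelium and pericytes, of 7 on the array, deviated from the solvent mean by a median of 0.31 in rotenone rat 16, by 0.17 in rotenone rat 13 and by 0.01 in rotenone rat 9. In rotenone rat 16, 4 were higher (Anpep, Abcb1a, Slco1a4 and Flt1) and the pericyte genes Pdgfrb and Rgs5 lower. The summed scaled intensity of the list was 57.0 to 62.3 with solvent and 61.1 to 112 with rotenone, and Kdr was above background on no array. Folr1 and Col1a2, the 2 tested of 7 markers of choroid plexus, ependyma and meninges, deviated by 0.71, 0.05 and -0.05 in the same order. Their sum was 30.3 to 38.1 with solvent and 35.3 to 68.7 with rotenone, with Ttr, Clic6, Foxj1 and Lum above background on no array. Astrocyte markers had a median deviation of -0.44 in that rat, with 4 of 7 lower (Gfap, S100b, Aldoc and Gja1) and 3 higher (Slc1a3, Glul and Aldh1l1). Their sum was 885 to 902 with solvent and 983 to 1180 with rotenone, higher in every rotenone rat. Such a sum adds linear values of the authors' scaled intensity, so the brightest genes weigh most in it. Its normalization is not that of the log2 values. The median log2 difference of the list with rotenone was only 0.02, with 4 genes above 0 and 3 below. Aqp4 and Slc1a2 were above background on no array. Oligodendrocyte markers had a median of -0.38 with 5 of 8 lower and 3 higher (Mag, Mobp and Olig1), and their sums, 301 to 432 with solvent and 317 to 351 with rotenone, overlapped. Olig1 was barely higher, at 7.67 against a solvent mean of 7.62. Mobp was counted by its brightest probe, GE1302921 (9.58 against 9.11). Its probes GE19922 (6.46 against 8.32) and GE21457 (5.81 against 6.88) were lower in that rat. Of the 11 dopamine neuron markers 7 were lower and 4 higher in that rat (median -0.19, against -0.30 in rotenone rat 13). Pitx3, among the 7, was tested only through the solvent rats. The 4 tested markers of microglia and macrophages deviated by a median of -0.15, -0.02 and -0.18 in rotenone rats 16, 13 and 9. In rotenone rat 16, 1 of them was higher and 3 were lower. The part of these cell types in the P450 values was not tested.

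**Figure D4:**
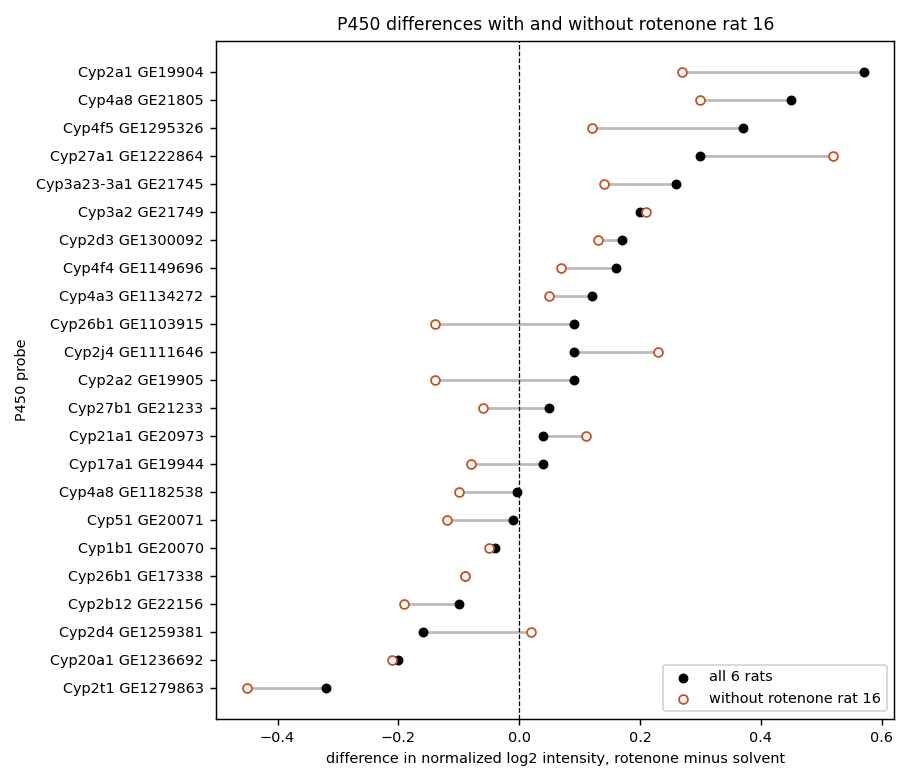
Difference in normalized log2 intensity (rotenone minus solvent) of the 23 tested P450 probes with all 6 rats (filled) and without rotenone rat 16 (open). Without this rat Cyp2a1 moves from 0.57 to 0.27 and Cyp4f5 from 0.37 to 0.12, while Cyp27a1 moves from 0.30 to 0.52.

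Genes that work with P450 enzymes were described by lists. Of 144 such genes 96 were on the array by name and 56 were tested, taking for each gene its brightest tested probe. None passed an adjusted p of 0.05 in limma. At an unadjusted p below 0.05, 3 were lower and 0 higher (5.36%, against 4.94% of all tested probes), and the median difference was -0.13, against 0.01 for all tested probes.

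The probe of Por, the reductase that serves P450 enzymes of the endoplasmic reticulum, was above background on no array. The other genes of the electron donor list, in which the P450-binding protein Pgrmc1 was counted too, were measured. Of its 8 genes on the array 7 were above background on all 6 arrays. Their median difference was -0.15, and -0.04 without rotenone rat 16. Cyb5r3, which reduces cytochrome b5, differed by -0.29 ± 0.26 (SE) and Cyb5a by -0.18 ± 0.24, and without rotenone rat 16 by 0.01 and 0.08. Heme enzymes had a median of 0.09 over 5 genes, and -0.01 without that rat. Alad, of the second step of heme synthesis, differed by -0.29 ± 0.17, and Alas2, the first enzyme in red blood cells, by 0.41 ± 0.31, while Hmox1, which breaks heme down, was above background on no array.

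Receptors and other factors that regulate P450 genes were mostly not detectable. Of 17 on the array 3 were tested, and Ahr, Arnt, Nr1i3 and Ppara were above background on no array. Hnf4a differed by 0.31 ± 0.22 (SE) and the liver X receptor gene Nr1h2 by -0.27 ± 0.20, which became 0.06 and -0.06 without rotenone rat 16. The 18 tested genes of conjugation and epoxide hydrolysis had a median of -0.14, with 6 above 0 and 12 below, and of -0.02 without rotenone rat 16. Nat1, among the 12, was above background on 3 solvent arrays and on no rotenone array, so it was tested only through the group where it was higher. The glutathione transferases Gstm3 (9.34 ± 0.13, SD, n = 3, against 8.82 ± 0.37, n = 3) and Mgst1 (7.37 ± 0.20 against 6.90 ± 0.27) differed by -0.52 and -0.46. Their unadjusted p in limma was 0.0307 and 0.0365, and without rotenone rat 16 the differences were -0.30 and -0.36.

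Sterol genes upstream of and around Cyp51 had a median of -0.27 over 14 genes, 10 below 0 and 4 above, and -0.14 without rotenone rat 16. Insig2, which holds back the activation of sterol synthesis, read 7.59 ± 0.04 with solvent and 7.04 ± 0.16 with rotenone (SD, n = 3 each), a difference of -0.54 with an unadjusted p of 0.00673 in limma that did not pass adjustment. Sc5d, which acts after Cyp51 on the way to cholesterol, differed by -0.44 ± 0.20 (SE). Steroid synthesis partners had a median of -0.12 over 5 genes, with Hsd17b10 at -0.26 ± 0.18 and Hsd17b4 at -0.17 ± 0.19. Without rotenone rat 16 these were -0.02, -0.16 and -0.02. Ptgis, the prostacyclin synthase, a P450 enzyme without a Cyp symbol, differed by -0.01 ± 0.27, and by 0.19 without that rat.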

How the data were processed

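RNA of the laser-captured region was amplified, labelled with biotin and hybridised to CodeLink arrays, per the labels' protocols. The deposited scanner files give linear intensity per spot. From spot means and local background medians, limma's normexp method (offset 50) gave corrected values. After removal of control spots, quantile normalization was applied to their log2. The authors' scaled intensity, deposited in the same files and as a value table, served as an alternative. 

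Probes were named through RefSeq (GRCr8) by accession without version; 13.8% had a symbol. Probes above background on at least 3 of 6 arrays entered limma 3.58.1 in R 4.3.3 (two-sided test), and p-values were adjusted by Benjamini-Hochberg across these 16708. Every spot was kept whatever its shape mark. The number of arrays limits the precision. In a simulation over all 16708 tested probes, 31% of 2-fold and 87% of 4-fold changes were recovered, with 9 false calls. In it 100 probes were changed at each fold, and their median fitted log2 differences were 0.64 and 1.59. These shares hold for the simulated noise and number of changed probes. The share for P450 probes alone, or for dim probes, was not tested. Each rat is 1 array. All 23 tested P450 probes are named, and of each partner list up to 2 genes with the lowest p, with further genes singled out after their values were seen. The result for 1 listed gene is not reported here. Members, lists and motifs were chosen with earlier results of these data known.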

Additional observations from a re-analysis of the deposited data

How the results depend on the processing

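No P450 probe and no partner gene passed an adjusted p of 0.05 under any alternative run. The count of P450 probes at an unadjusted p below 0.05 (2) was 0 with median scaling, with subtraction of the background, with array weights and with the value table as deposited. It was 1 without a filter, 1 for probes above background on all 6 arrays, 1 without spots marked for shape and 1 with the deposited scaled values in probe order, and ranged from 0 to 3 with a rat left out. The median difference (0.09) was -0.01 with median scaling, -0.05 without shape-marked spots and 0.53 with the value table as deposited, where that of all probes was 0.74 and only 0.898% of the column of solvent rat 7 equalled its scanner file. It was -0.00082 without a filter (59 probes). It ranged from 0.02 to 0.13 with a rat left out. Of the P450 probes, 15 were above background on all 6 arrays, 35 on at least 1, 26 by the negative control spots and 8 could be tested without shape-marked spots. Apart from the value table as deposited, 11 of the 23 probes kept the sign of their difference under all alternatives and 12 changed it under at least 1; no probe was called under either sign, and the cause was not tested. The sign turned with median scaling, to -0.01 for Cyp26b1 GE1103915, -0.03 for Cyp21a1, -0.03 for Cyp27b1 and -0.06 for Cyp17a1. It turned without shape-marked spots, to -0.05 for Cyp2j4, -0.15 for Cyp21a1 and -0.05 for Cyp27b1. It turned with the value table as deposited, to -1.02 for Cyp4f4, 0.89 for Cyp1b1, 1.44 for Cyp20a1, 2.23 for Cyp51, 0.35 for Cyp2d4, -0.58 for Cyp21a1 and -0.67 for Cyp2a2. In that table only the column of solvent rat 7 did not match its scanner file, the others matching at 100%. These turns are thus not read as an effect of processing. The same scaled values in probe order gave 0.51 for Cyp4f4, -0.06 for Cyp1b1 and -0.20 for Cyp20a1, and of these genes only Cyp51 turned. The sign turned with array weights, to -0.04 for Cyp27b1, 0.08 for Cyp26b1 GE17338, -0.03 for Cyp17a1 and -0.04 for Cyp2a2. It turned with the scaled values in probe order, to 0.09 for Cyp51. It turned with such spots left out after normalization, to -0.02 for Cyp21a1. With a rat left out the difference ranged from -0.08 to 0.18 for Cyp17a1, from -0.13 to 0.06 for Cyp1b1, from -0.04 to 0.11 for Cyp21a1, from -0.14 to 0.49 for Cyp26b1 GE1103915, from -0.42 to 0.43 for Cyp26b1 GE17338, from -0.06 to 0.15 for Cyp27b1, from -0.14 to 0.23 for Cyp2a2, from -0.19 to 0.00347 for Cyp2b12, from -0.30 to 0.02 for Cyp2d4, from -0.17 to 0.28 for Cyp2j4, from -0.10 to 0.08 for Cyp4a8 GE1182538 and from -0.12 to 0.14 for Cyp51. For the other 11 it ranged from -0.27 to -0.10 for Cyp20a1, from 0.05 to 0.52 for Cyp27a1, from 0.27 to 0.73 for Cyp2a1, from 0.09 to 0.27 for Cyp2d3, from -0.46 to -0.24 for Cyp2t1, from 0.09 to 0.27 for Cyp3a2, from 0.14 to 0.37 for Cyp3a23-3a1, from 0.05 to 0.23 for Cyp4a3, from 0.30 to 0.60 for Cyp4a8 GE21805, from 0.07 to 0.21 for Cyp4f4 and from 0.12 to 0.55 for Cyp4f5. Sizes of dim probes depended on the background correction. Differences moved by over 1 SD with subtraction, to 0.55 for Cyp2j4, 1.33 for Cyp3a2, 0.57 for Cyp4f4, 0.66 for Cyp2d3, 0.71 for Cyp4a8 GE21805, -0.42 for Cyp2d4, 0.72 for Cyp3a23-3a1 and -1.05 for Cyp2t1; with an offset of 16, to 0.40 for Cyp3a2, 0.29 for Cyp4f4 and -0.55 for Cyp2t1; and with the scaled values in probe order, to 0.55 for Cyp2j4, 1.27 for Cyp3a2, 0.51 for Cyp4f4, 0.62 for Cyp2d3, 0.73 for Cyp4a8 GE21805, -0.16 for Cyp4a8 GE1182538, -0.45 for Cyp2d4, 0.68 for Cyp3a23-3a1 and -1.14 for Cyp2t1. The headers of the files carry a date on which solvent rat 7 stands alone, so this date as a block nearly equals leaving out that rat (median difference 0.06 for both). The deposited scaled values in probe order were chosen as an alternative after seeing the data. Shape-marked spots were first left out after normalization. Once that output had been seen (P450 count 1, median difference 0.04, 205 probes of all at an unadjusted p below 0.05), they were left out before it instead (count 1, median -0.05, 260 probes). This leaves no test for Cyp2a1 or Cyp4a8 GE21805. No paired analysis was possible because the groups share no rat number. Signal over background limits which members could be tested at all.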
